A study of Mus musculus with 12 samples.

Results

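The genes described here build the machinery that cuts and cross-links the matrix around kidney cells. They are the matrix metalloproteinases (Mmp), their tissue inhibitors (Timp), the ADAM and ADAMTS metalloproteases and the lysyl oxidases (Lox and Loxl). Members were chosen by name alone, as every protein-coding gene whose symbol starts with Mmp, Timp, Adam or Adamts followed directly by a number, plus Lox and Loxl1 to Loxl4. This gave 83 genes of the 52636 in the deposited table, with 22 in the Mmp family, 4 Timp, 33 Adam, 19 Adamts and 5 lysyl oxidases. Of these, 29 reached a level of at least 1 FPKM (fragment counts corrected for gene length and sequencing depth) in at least 3 of the 12 libraries and entered the test, as did 13540 genes in all. In 7 members no read was listed in any library (Mmp1b, Adam20, Adam25, Adam26a, Adam34, Adam39 and Adamts19).

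Kidney mRNA was sequenced from male wild-type C57BL/6 mice aged 8 weeks, with 3 libraries in each of 4 groups. Controls were given the oil and saline vehicles, and the cisplatin group a single intraperitoneal dose of 20 mg/kg of this platinum drug, which injures renal tubules. The PCN group was gavaged daily with 40 mg/kg pregnenolone carbonitrile, an activator of the rodent pregnane X receptor, for 4 days and then for a further 3 days, and the cisplatin+PCN group received both drugs, with cisplatin after the first 4 days of PCN. Tissue was collected 4 days after cisplatin. In the text on treatment the cisplatin animals are placed both with those pretreated with PCN and with those given oil, so group names follow the library titles. The labels do not state that every library is a separate animal, so p-values measure the spread between libraries, which may be technical.

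Between 18914607 and 26530485 reads per library were assigned to genes, and an FPKM of 1 stood for 18.7 to 27.2 reads per kilobase. The tissue label was checked with 8 tubule markers, whose summed FPKM was 28494 to 33134 in control, and with 3 glomerular markers at 46.2 to 62.1. The tubule sum was 4565 to 4767 with cisplatin. In the cisplatin+PCN group it was 10285 in library 1 but 4852 and 5210 in libraries 2 and 3. Library 1 also lay nearest to the controls on the first principal component (80.2% of the variance), at 21.9 against 40.7 and 29.3. Summed adipocyte markers were high in control library 1 (105) and PCN library 1 (180), against 16 to 82.8 in the other 10 libraries.

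Matrix metalloproteinases are zinc proteases, secreted or bound to the membrane, that are made as inactive precursors and cut collagens, laminins and many other proteins outside the cell. TIMP proteins block them, and TIMP3 also binds to the matrix and inhibits ADAM and ADAMTS enzymes. ADAM proteases sit in the membrane and release growth factors, cytokines and receptors from the cell surface, whereas ADAMTS proteases are secreted and cut proteoglycans or trim procollagen. Lysyl oxidases are copper enzymes that oxidise lysines in collagen and elastin so that the fibres become cross-linked. In the kidney these enzymes act on tubular and glomerular basement membranes and on the interstitial matrix, and several are known as genes induced by tubular injury.

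With cisplatin, 17 of the 29 tested members rose and 2 fell relative to control (limma on log2(FPKM + 1), Benjamini-Hochberg adjusted p under 0.05). Of all 13540 genes 63.9% were called in either direction in this comparison, 32.0% higher and 31.9% lower. The members' median log2 difference was 0.40, against 0.009 over all tested genes. By family, 5 of 8 Mmp genes rose, 2 of 3 Timp genes rose and 1 fell, 4 of 6 Adam genes rose and 1 fell, and 4 of 8 Adamts genes and 2 of 4 lysyl oxidases rose. The 2 members that fell were Timp3 and Adam17. Part of this count follows from the expression minimum. Of the 29 members, 10 had an FPKM of at least 1 in fewer than 3 of the 6 libraries without cisplatin, and 8 of these 10 rose, a route by which 62% of all such genes (555 of 895) rose. Of the 8 members under 1 FPKM in every library without cisplatin, 7 rose (87.5%), as did 87.2% of all such genes (402 of 461). Of the 19 members that met the minimum in libraries without cisplatin, 9 rose (47.4%) and 2 fell (10.5%), against 29.9% and 34.1% of 12645 genes.

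**Figure D1:**
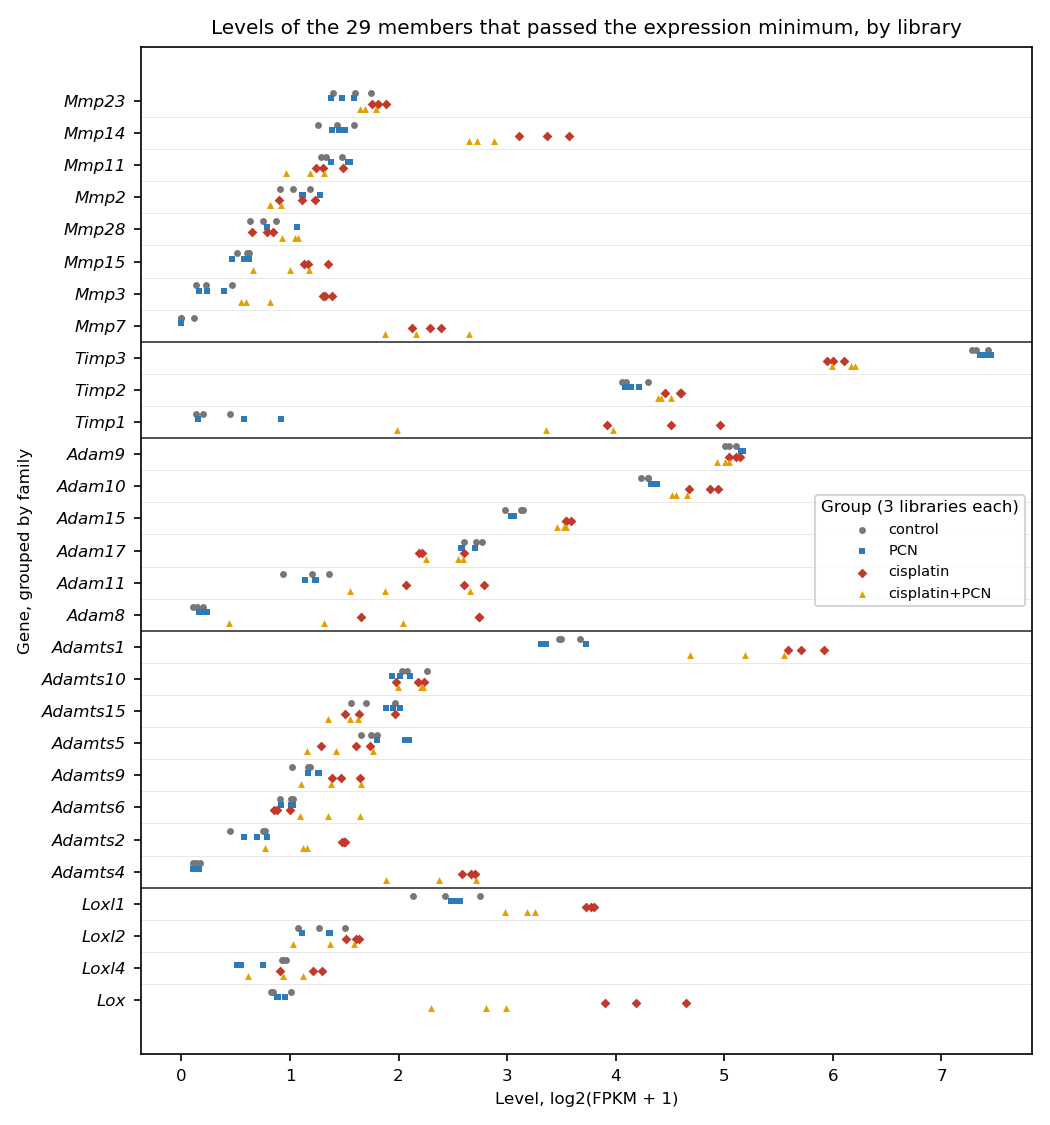
Level on the log2(FPKM + 1) scale of the 29 tested members, with 1 point for each of the 12 libraries, by family. Timp3 is the highest member in the control libraries and is lower in all 6 libraries with cisplatin, while Timp1, Mmp7, Adamts4 and Lox hold at most 1.01 FPKM in any library without cisplatin and at least 2.66 FPKM in every library with it.

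The 4 inhibitors moved apart. Timp1, the injury-inducible inhibitor (ENSMUSG00000001131, X:20870166-20874735, GRCm38), was listed at 0.361, 0.148 and 0.101 FPKM in the control libraries and 0.492, 0.115 and 0.886 with PCN. It stood at 14.2, 30.0 and 21.8 FPKM with cisplatin and at 2.96, 14.7 and 9.25 with cisplatin+PCN. Every library with cisplatin was thus above every library without it, and the cisplatin+PCN libraries overlapped the cisplatin ones. The mean with cisplatin, 22.0 ± 7.94 FPKM (SD, n = 3), was 108 times the control mean of 0.203 ± 0.139, a log2(FPKM + 1) difference of 4.20 ± 0.43 (SE, limma adjusted p = 1e-05). Because these are bulk samples, a larger number of cells that express a gene and more RNA per cell cannot be told apart, here and throughout.

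Timp3, the matrix-bound inhibitor (ENSMUSG00000020044, 10:86300372-86349506), had the highest FPKM of all members in both the control and the cisplatin groups and moved the opposite way. Its control libraries held 171, 158 and 154 FPKM and its PCN libraries 163, 169 and 175. With cisplatin it was at 60.5, 63.0 and 67.7, and with cisplatin+PCN at 72.5, 70.7 and 62.7. The 2 sets of 6 libraries were far apart, and the control mean of 161 ± 8.58 was 2.53 times the cisplatin mean of 63.7 ± 3.69 FPKM. On the log2 scale Timp3 fell by 1.33 ± 0.08 (SE, limma adjusted p = 2.02e-07).

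Timp2, which besides inhibiting also helps to activate pro-MMP2 at the cell surface (11:118301069-118355740), rose from 16.8 ± 1.63 to 22.5 ± 1.31 FPKM, a log2 difference of 0.40 ± 0.08 (limma adjusted p = 0.000971). Its 3 cisplatin libraries (23.1, 20.9 and 23.3) all lay above its 3 control libraries (16.1, 18.6 and 15.6). Timp4 was under the expression minimum, with means of 0.101 in control and 0.126 in cisplatin. Timp1, Timp3 and Timp4 each lie inside a synapsin gene on the opposite strand (Syn1, Syn3 and Syn2), and the strand of the counting is not stated. Exons of the partner cover 21.3% of the Timp3 exon bases, where reads of the pair cannot be told apart, but 1.5% of those of Timp4 and 0.0% of those of Timp1. The same limit holds for other members with exons of an opposite-strand gene over their own. Such exons cover 22.3% of Mmp19, 20.6% of Adam15, 13.6% of Mmp24 and 11.5% of Mmp7, and part of some further members.

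Among the membrane-bound matrix metalloproteinases over the expression minimum, Mmp14 had the largest difference. Mmp14 is the membrane-type collagenase that also activates pro-MMP2 (ENSMUSG00000000957, 14:54431612-54445364). Its control libraries were at 1.70, 2.0 and 1.40 FPKM, its PCN libraries at 1.84, 1.61 and 1.73, its cisplatin libraries at 9.34, 7.61 and 10.9, and its cisplatin+PCN libraries at 5.29, 6.35 and 5.60. The groups formed 3 levels that did not overlap, without cisplatin, with both drugs and with cisplatin alone. The cisplatin mean was 5.45 times the control mean, with a log2 difference of 1.92 ± 0.12 (limma adjusted p = 3.29e-07).

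Mmp15, another membrane-type enzyme, was at 0.525, 0.536 and 0.431 FPKM in control and at 1.19, 1.55 and 1.24 with cisplatin (log2 difference 0.63 ± 0.13, limma adjusted p = 0.00124). Mmp23, an enzyme of unusual structure anchored by its amino end, rose from 2.0 ± 0.365 to 2.53 ± 0.151 FPKM (log2 difference 0.24 ± 0.10, limma adjusted p = 0.0483). This last call was near the threshold and was lost with any of 11 libraries left out, control library 1 being the exception, at adjusted p up to 0.197. The gelatinase Mmp2 was at 1.06 ± 0.197 FPKM in control and 1.13 ± 0.245 with cisplatin (log2 difference 0.04, adjusted p = 0.751). For Mmp11, stromelysin 3, and Mmp28, epilysin, the log2 differences were -0.02 and 0.01 and did not pass.

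A cluster of 9 Mmp genes on chromosome 9, from 7272514 to 7699585, held members with very different behaviour. In order along the chromosome these are Mmp13, Mmp12, Mmp1b, Mmp3, Mmp10, Mmp8, Mmp27, Mmp20 and Mmp7, with no other protein-coding gene between them in the deposited table. The 250 bases before the start of the 5 that the values below turn on are printed here, because neighbours with a like promoter word differ in level. They are on the plus strand, 5′ to 3′, from RefSeq for GRCm38.p6. Capitals mark matches to TGANTCA, a looser form of the word bound by AP-1 (C or G at the middle base), a factor made of Fos and Jun proteins.
Mmp13, chr9:7272264-7272513: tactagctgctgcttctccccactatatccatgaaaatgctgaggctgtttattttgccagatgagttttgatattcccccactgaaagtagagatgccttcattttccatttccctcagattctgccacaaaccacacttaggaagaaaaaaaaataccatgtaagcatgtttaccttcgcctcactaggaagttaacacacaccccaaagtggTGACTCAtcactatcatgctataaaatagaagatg
Mmp3, chr9:7445572-7445821: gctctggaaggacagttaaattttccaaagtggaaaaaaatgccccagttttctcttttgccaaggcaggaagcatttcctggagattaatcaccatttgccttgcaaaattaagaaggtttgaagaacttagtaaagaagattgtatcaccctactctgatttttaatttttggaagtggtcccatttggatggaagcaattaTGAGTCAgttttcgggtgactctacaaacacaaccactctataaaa
Mmp10, chr9:7502092-7502341: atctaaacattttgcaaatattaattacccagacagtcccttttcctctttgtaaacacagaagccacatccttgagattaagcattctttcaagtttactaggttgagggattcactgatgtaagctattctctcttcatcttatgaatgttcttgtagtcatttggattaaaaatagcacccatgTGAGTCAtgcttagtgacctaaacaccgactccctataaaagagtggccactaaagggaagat
Mmp8, chr9:7558179-7558428: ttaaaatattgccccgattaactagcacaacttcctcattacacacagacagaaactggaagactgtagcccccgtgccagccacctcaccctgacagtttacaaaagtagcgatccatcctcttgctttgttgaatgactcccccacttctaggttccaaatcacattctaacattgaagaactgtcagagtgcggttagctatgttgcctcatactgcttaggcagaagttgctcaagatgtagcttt
Mmp7, chr9:7691840-7692089: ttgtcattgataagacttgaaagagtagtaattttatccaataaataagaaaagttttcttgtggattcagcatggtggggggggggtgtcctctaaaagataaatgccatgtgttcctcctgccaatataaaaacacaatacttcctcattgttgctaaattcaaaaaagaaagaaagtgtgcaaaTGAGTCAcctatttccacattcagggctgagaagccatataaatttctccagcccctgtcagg

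The first base of the match lies 63 bases before the start in Mmp7 and Mmp10, 46 in Mmp3 and 35 in Mmp13, and Mmp8 has none. Over the whole RefSeq windows of 300 bases (250 before and 50 after the start, both strands), 7 of the 9 cluster genes held the word, all but Mmp8 and Mmp27. Counted per gene, with any window of a gene, 12 of 49 members held it (24.5%), against 2425 of 27025 genes (8.97%), and the 7 cluster genes are paralogues of each other. Outside the cluster 5 of 40 members held it. The matches of Mmp20, Adam20 and Adam25 read TGAATCA, which only the looser form admits. The word of the inflammatory factor NF-kB was in 0 members and the STAT word TTCNNNGAA in 3, against 0.174% and 9.55% of all genes. A match is a string of letters only, and no binding was measured.

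Mmp7, matrilysin, an epithelial protease with E-cadherin among its substrates (ENSMUSG00000018623, 9:7692090-7699585), was nearly silent without cisplatin. It was listed at 0, 0 and 0.0837 FPKM in control (0, 0 and 2 reads) and at 0 in all 3 PCN libraries. With cisplatin it was at 4.23, 3.89 and 3.37 FPKM (87, 96 and 98 reads) and with cisplatin+PCN at 3.46, 5.26 and 2.66. No library without cisplatin came near those with it, and the last 2 groups overlapped. From 281 against 2 reads the ratio of cisplatin to control was 129, with an exact 95% interval of 35.4 to 1070 that covers counting error only. The pooled cisplatin+PCN level was 86.7 times the level that 3 reads over the PCN group would give. That ratio has no interval and is not a lower bound. The limma adjusted p for cisplatin against control was 8.24e-07.

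Mmp3, stromelysin 1, which cuts proteoglycans and activates other MMPs (ENSMUSG00000043613, 9:7445822-7455975), was at 0.386, 0.0974 and 0.174 FPKM in control, 0.121, 0.311 and 0.18 with PCN, 1.47, 1.61 and 1.51 with cisplatin and 0.508, 0.763 and 0.461 with cisplatin+PCN. Cisplatin libraries were highest, and the cisplatin+PCN libraries lay between them and the other 6. The cisplatin mean was 6.99 times the control mean, and the log2 difference was 1.06 ± 0.12 (limma adjusted p = 1.95e-05).

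The 54 members under the expression minimum were examined only on recovered reads, with limma-voom on the 23150 genes with at least 10 reads in all, a test chosen after seeing the data. Of these members 39 had enough reads and 15 did not. With cisplatin 10 of the 39 were higher and 10 lower, where 45.9% of all genes were called, 26.2% higher and 19.7% lower, and the median gene lay at 0.111 on the log2 scale. These shares are over all 23150 genes and not over genes under the minimum alone, here and for the other comparisons on recovered reads. With cisplatin, limma-voom on the 13540 genes over the minimum called 8514. The remaining cluster genes are among the members under the minimum. Mmp10, stromelysin 2, was listed at 0 in all 6 libraries without cisplatin and at 0.483, 0.679 and 0.874 FPKM with it (16, 27 and 41 reads, limma-voom adjusted p = 4.72e-06). Its pooled cisplatin level was 25.7 times the level that 3 reads over the control group would give, a ratio without an interval. Mmp8, neutrophil collagenase, had 3 reads in control and 88 with cisplatin, a ratio of 26.9 with an exact 95% interval of 8.92 to 133 (limma-voom adjusted p = 0.000856).

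Mmp13, the collagenase at the far end of the cluster, moved the other way in the same test. It was at 0.50, 0.787 and 0.636 FPKM in control and at 0.0389, 0.0972 and 0.179 with cisplatin, a log2 difference of -2.56 ± 0.49 on the reads scale (limma-voom adjusted p = 0.000645). The 2 groups did not overlap. Mmp13 and Mmp10 both hold the AP-1 word and differed in direction, and the part of the word in either was not tested. Mmp12, macrophage elastase, was at 0.114 in control and 0.109 with cisplatin on average and did not pass (log2 difference 0.06, adjusted p = 0.945), and Mmp1b had no read. Mmp20 (19 reads with cisplatin, 1 in control) and Mmp27 (15 and 1) passed at limma-voom adjusted p of 0.00105 and 0.00424, and these 2 are named after their values were seen.

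**Figure D2:**
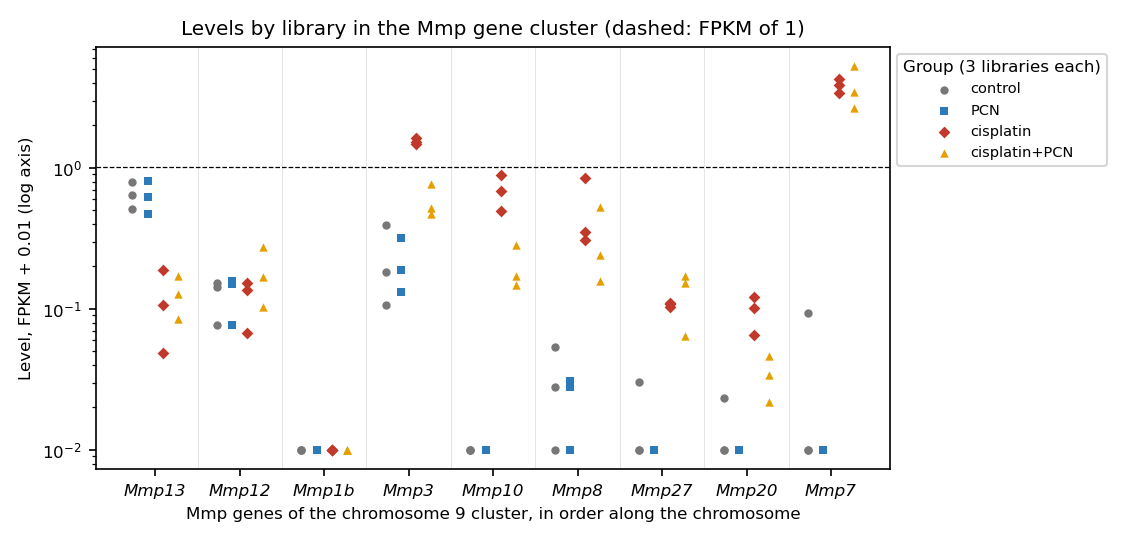
Level of the 9 Mmp genes in their order along chromosome 9, on a log axis of FPKM plus a small constant, with 1 point for each library; the lowest row of points is an FPKM of 0, and the dashed line is an FPKM of 1. Mmp7, Mmp3, Mmp8 and Mmp10 are higher in every library with cisplatin than in any without, and Mmp13 is lower in every one.

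Of the other Mmp genes under the expression minimum, Mmp19 and Mmp9 rose with cisplatin on the recovered reads. Mmp19, a widely expressed enzyme, went from 0.220 ± 0.0709 to 0.645 ± 0.0961 FPKM (log2 difference 1.68 ± 0.39, limma-voom adjusted p = 0.00296). Mmp9, the gelatinase that neutrophils and macrophages carry, was at 0.121, 0.0991 and 0.101 FPKM in control, 0.367, 0.367 and 0.529 with cisplatin, and 0.0675, 0.499 and 0.0558 with cisplatin+PCN. Only library 2 of the last group was at the cisplatin level. Mmp9 passed for cisplatin against control (log2 difference 2.02 ± 0.62, limma-voom adjusted p = 0.0149). Mmp24, a membrane-type enzyme best known from neurons, had 3 reads in control and 31 with cisplatin, a ratio of 9.48 with an exact 95% interval of 2.96 to 48.5 (limma-voom adjusted p = 0.00723). The membrane-anchored Mmp17, at 0.426 FPKM in control and 0.326 with cisplatin on average, was not called.

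Mmp8 and Mmp9 moved with neutrophil markers. The sum of 10 such markers was 2.53 to 3.89 FPKM in control, 1.07 to 1.85 with PCN, 18.5 to 30.5 with cisplatin, and 9.50, 24.1 and 4.41 in the 3 cisplatin+PCN libraries. Of the 2 markers that could be tested both rose with cisplatin, as did 32.0% of all tested genes. Mpo was at 0 in all 12 libraries and Ly6g at 0 in all libraries without cisplatin. Within cisplatin+PCN, library 2 was highest for the marker sum and for Mmp8 (0.518, against 0.230 and 0.147), as it was for Mmp9. Their part in the result was not tested.

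Of the 6 tested Adam genes, Adam8, Adam10, Adam11 and Adam15 rose and Adam17 fell. Adam10, which releases Notch, cadherins and growth factors (9:70678997-70780229), was at 17.8, 18.7 and 18.7 FPKM in control, 19.3, 19.8 and 19.1 with PCN, 28.3, 29.7 and 24.5 with cisplatin and 21.9, 24.2 and 22.5 with cisplatin+PCN. Again the both-drug libraries lay between cisplatin and the rest, with no overlap. The log2 difference for cisplatin against control was 0.55 ± 0.07 (limma adjusted p = 7.1e-05). Adam17, the TNF-converting enzyme (12:21323509-21373632), fell by 0.36 ± 0.12 on the log2 scale (limma adjusted p = 0.022).

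Adam17 was called although its groups overlapped, with 5.84, 5.08 and 5.56 FPKM in control and 3.64, 5.09 and 3.55 with cisplatin. It did not pass without control library 1 (adjusted p = 0.0701) or 3 (0.0557), without cisplatin library 1 (0.0802) or 3 (0.0853), or by limma-voom (0.102). Adam9, a broadly expressed membrane protease and the member with the second highest control level, was at 32.3 ± 1.17 FPKM in control and 33.3 ± 1.24 with cisplatin (log2 difference 0.04, adjusted p = 0.53). Adam15, which carries an integrin-binding motif, was at 7.49 ± 0.505 FPKM in control and 10.8 ± 0.188 with cisplatin (log2 difference 0.47 ± 0.06, limma adjusted p = 3.81e-05).

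Adam8, a protease of activated leukocytes (7:139978932-139992562), had the largest change among the Adam genes. Its 3 control libraries held 0.15, 0.0756 and 0.106 FPKM, its PCN libraries 0.179, 0.143 and 0.120, its cisplatin libraries 2.15, 5.69 and 5.68, and its cisplatin+PCN libraries 0.352, 3.13 and 1.48. The cisplatin mean was 40.8 times that of control, and the log2 difference was 2.23 ± 0.36 (limma adjusted p = 0.000301). The order of the 3 cisplatin+PCN libraries, highest in library 2 and lowest in library 1, differed from that of the neutrophil sum, which was lowest in library 3. The sum of 10 macrophage markers was 85.5 to 103 FPKM in control, 73.6 to 84.6 with PCN, 160 to 192 with cisplatin and 95.4 to 148 with cisplatin+PCN, and was lowest of that group in library 1. Of 8 tested macrophage markers 3 rose and 1 fell with cisplatin, where 32.0% of all tested genes rose and 31.9% fell. None of the 10 was at 0 in a group, and the part of these markers in the result was not tested.

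Adam11, a relative without a zinc-binding site that is known from neurons, was at 1.57, 1.30 and 0.915 FPKM in control and 3.21, 5.91 and 5.08 with cisplatin (log2 difference 1.32 ± 0.26, limma adjusted p = 0.000968). Below the expression minimum, Adam23 (also without protease activity, named after its values were seen) rose from 0.0204 to 0.202 FPKM on average (limma-voom adjusted p = 0.000113). Adam1a fell from 0.584 to 0.206 (0.00618). In GENCODE M21, exons on the same strand cover much of its 7508 exon bases, 63.7% by Gm42878 and 24.0% by Mapkapk5. The deposited Adam1a is 3496 bases long, so these shares need not hold for the bases that were counted. Adam22 fell from 0.484 to 0.297 FPKM (0.0299). Adam12 and Adam19, shedding enzymes of mesenchymal cells, had control means of 0.393 and 0.381 FPKM and were not called, nor were Adam1b (0.308) and Adam28 (at most 0.108 in any library).

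Among the secreted ADAMTS proteases, Adamts1 and Adamts4 rose most. Both are proteoglycanases that cut aggrecan and versican. Adamts1 (ENSMUSG00000022893, 16:85793827-85803113) was at 11.8, 10.1 and 10.3 FPKM in control, 9.26, 12.3 and 8.96 with PCN, 51.4, 47.0 and 59.4 with cisplatin, and 24.7, 45.9 and 35.6 with cisplatin+PCN. The cisplatin libraries were the highest, and all 6 with cisplatin lay above the 6 without. The cisplatin mean of 52.6 ± 6.31 FPKM was 4.91 times the control mean and second only to Timp3 among members (log2 difference 2.19 ± 0.19, limma adjusted p = 3.47e-06).

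Adamts4 (ENSMUSG00000006403, 1:171250421-171260637) was at 0.10, 0.128 and 0.0744 FPKM in control, 0.118, 0.0741 and 0.0962 with PCN, 5.01, 5.51 and 5.35 with cisplatin and 2.69, 5.57 and 4.16 with cisplatin+PCN. It thus went from near 0 to the level of other tested members in every library with cisplatin, 52.5 times the control mean with cisplatin alone (log2 difference 2.51 ± 0.16, limma adjusted p = 3.87e-07). Adamts2, which removes the amino-terminal propeptide of procollagens, was at 0.681, 0.704 and 0.364 FPKM in control and 1.83, 1.85 and 1.80 with cisplatin (log2 difference 0.84 ± 0.12, limma adjusted p = 0.000149). Adamts9, a versican-cutting enzyme, was at 1.27, 1.03 and 1.24 FPKM in control and 1.61, 2.12 and 1.77 with cisplatin (log2 difference 0.38 ± 0.13, limma adjusted p = 0.0244). Without control library 2 or cisplatin library 2 Adamts9 did not pass (0.0822 and 0.0819).

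The aggrecanase Adamts5 was at 2.33 ± 0.173 FPKM in control and 1.93 ± 0.458 with cisplatin, and did not pass (log2 difference -0.19, adjusted p = 0.3). Adamts6, Adamts10 and Adamts15 also did not pass, at log2 differences of -0.07, 0.01 and -0.04. Adamts13, which cuts von Willebrand factor, reached at most 0.0363 FPKM in any library. On the recovered reads, Adamts7 rose from 0.532 ± 0.160 to 1.2 ± 0.343 FPKM (limma-voom adjusted p = 0.00168) and Adamts12 from 0.157 to 0.309 (0.012). Adamts14, another procollagen N-proteinase, fell from 0.450 ± 0.073 to 0.186 ± 0.0261 FPKM (limma-voom adjusted p = 0.00389). The remaining lower members on the recovered reads were Adamts16, described with the both-drug group, and Mmp16, Adam4, Adam7, Adamts17 and Adamts20, which stayed under 0.3 FPKM in every library and are named after their values were seen.

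Of the lysyl oxidases, Lox and Loxl1 rose. Lox (ENSMUSG00000024529, 18:52516069-52529867) was at 1.01, 0.793 and 0.772 FPKM in control, 0.854, 0.932 and 0.837 with PCN, 17.2, 14.0 and 24.1 with cisplatin and 6.95, 5.99 and 3.92 with cisplatin+PCN. The cisplatin, cisplatin+PCN and remaining libraries formed 3 separate levels. The cisplatin mean was 21.5 times the control mean (log2 difference 3.35 ± 0.19, limma adjusted p = 1.91e-07).

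Loxl1, which is needed for elastic fibre upkeep (ENSMUSG00000032334, 9:58287738-58313186), was at 5.72, 4.38 and 3.39 FPKM in control, 4.75, 4.59 and 4.92 with PCN, 12.6, 12.2 and 12.9 with cisplatin and 6.90, 8.53 and 8.10 with cisplatin+PCN. It showed the same 3 separate levels, with a log2 difference of 1.33 ± 0.13 for cisplatin against control (limma adjusted p = 6.92e-06). Loxl2, which acts on basement membrane collagen, was at 1.84, 1.41 and 1.10 FPKM in control and 2.06, 2.11 and 1.86 with cisplatin. Its difference did not pass (0.31 ± 0.15, limma adjusted p = 0.0938), though it did without control library 1 (0.0408) or cisplatin+PCN library 1 (0.0485). Loxl4 was at 0.921 ± 0.0233 and 1.22 ± 0.302 FPKM (log2 difference 0.20, adjusted p = 0.246), and Loxl3, under the minimum, at 0.796 and 0.895 on average.

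Lox, Loxl1, Adamts2 and Mmp14 rose with cisplatin, and so did the summed markers of fibroblasts and mural cells. The sum of 9 such markers was 34.8 to 61.1 FPKM in control, 49.6 to 50.4 with PCN, 76.0 to 86.6 with cisplatin and 44.6 to 69.8 with cisplatin+PCN. Of the 8 that could be tested 5 rose with cisplatin, where 32.0% of all tested genes rose, and none of the 9 was at 0 in any group. Within cisplatin+PCN the sum was lowest in library 1 (44.6, then 69.8 and 62.9), where Lox was highest, and it overlapped the control range, while all 3 Lox values lay above control. The sum of 6 endothelial markers was 65.2 to 76.5 in control and 65.3 to 80.4 with cisplatin. Their part in the result was not tested.

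**Figure D3:**
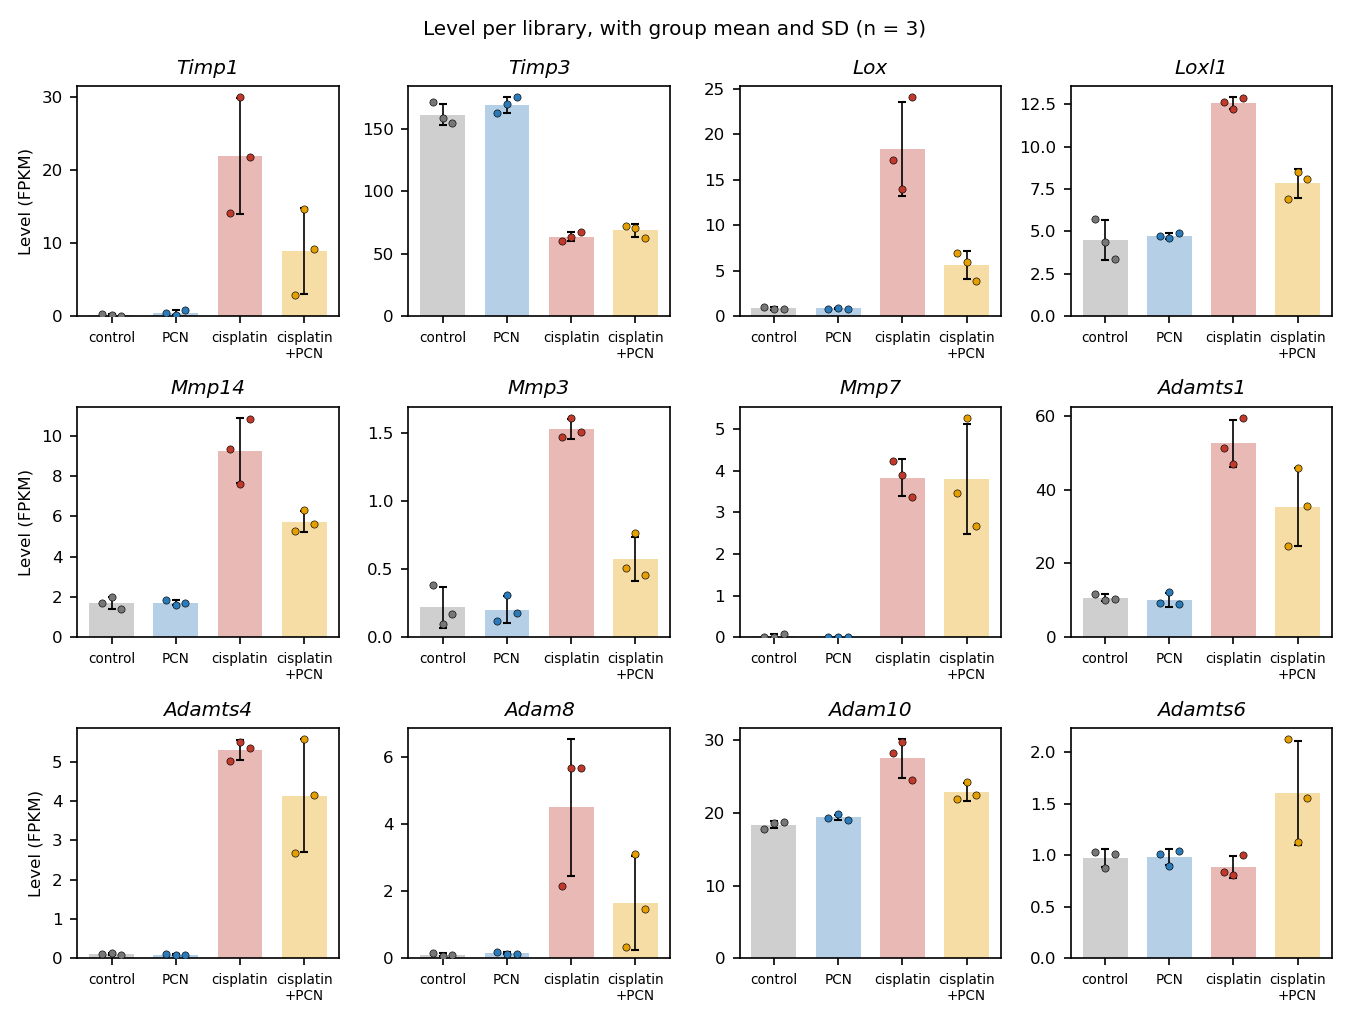
FPKM in each library (points), with group means (bars) and SD (error bars, n = 3), for 12 members that the results turn on. Lox, Loxl1, Mmp14, Mmp3 and Adam10 show cisplatin+PCN between cisplatin and the other groups, the libraries of the 2 groups with cisplatin overlap for Mmp7 and Timp3, and Adamts6 is highest with both drugs.

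When PCN was given with cisplatin, 6 of the 29 members were lower and 1 was higher than with cisplatin alone. Of all tested genes 15.6% were called in this comparison, 7.61% lower and 7.97% higher. Of the 19 members that met the minimum without cisplatin 3 were lower (15.8%, against 7.09% of such genes), and of the other 10 members 3 were lower (30%, against 15%). Of the 8 members under 1 FPKM in every library without cisplatin, 2 were lower (25%), as were 24.3% of all such genes. The members' median log2 difference was -0.23, against 0.000 over all genes, and 5 of the 29 differences were above 0. The lower members were Lox, Loxl1, Mmp14, Mmp3, Adamts2 and Adam10, and the higher 1 was Adamts6. This comparison and that of cisplatin against control share the cisplatin libraries, so a library that is high by chance raises the difference in that comparison and lowers it here.

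Lox differed most, with a cisplatin mean 3.28 times that of cisplatin+PCN (log2 difference -1.55 ± 0.19, 95% interval -1.97 to -1.13, limma adjusted p = 0.00315). For Mmp3 the ratio was 2.65 (log2 difference -0.69 ± 0.12, limma adjusted p = 0.00877), for Mmp14 it was 1.61 (-0.60 ± 0.12, 0.0134). Loxl1 differed by -0.62 ± 0.13 (0.0146), Adamts2 by -0.48 ± 0.12 (0.0296) and Adam10 by -0.25 ± 0.07 (0.043). In each of these 6 the cisplatin+PCN libraries all lay below the cisplatin libraries. The call that picked these members favours such a separation, so it adds no support of its own. Adamts6, a poorly known relative of Adamts10, went the other way, at 0.839, 0.811 and 1.0 FPKM with cisplatin and 2.13, 1.13 and 1.55 with both drugs (0.45 ± 0.12, limma adjusted p = 0.036).

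All 7 calls were lost when only the 6 libraries compared entered the fit, with adjusted p from 0.111 for Mmp3 to 0.197 for Adam10, a fit in which 1 gene of 13540 was called and 3094 genes, 11 members among them, had an unadjusted p under 0.05. Loxl1 did not pass without cisplatin library 3 (0.0519). Adamts2 did not pass without cisplatin library 1 (0.0762) or 3 (0.0849), or without cisplatin+PCN library 1 (0.0768) or 3 (0.0609). Adam10 passed without cisplatin library 3 or cisplatin+PCN library 2 only (0.0564 to 0.121 without any other), and Adamts6 without control library 1 or cisplatin+PCN library 2 only (0.0504 to 0.0927). Other settings also ended calls: no filter for Adam10 (0.0711), Adamts2 (0.0687) and Adamts6 (0.085), limma-voom (0.0859) and scaling without the most abundant genes (0.115) for Adam10, and a pseudocount of 0.1 for Adamts2 (0.0649). Lox, Mmp14 and Mmp3 passed with any 1 library left out. Without cisplatin+PCN library 2, 11 members were lower, with 1155 genes lower and 1384 higher of 13540. The count over all genes was 2110 with all libraries, 3390 without cisplatin library 2, and 805, 580, 1175 and 596 without cisplatin library 1 or 3 or cisplatin+PCN library 1 or 3.

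Several members that rose strongly with cisplatin had lower means with both drugs but did not pass. Timp1 was at 22.0 ± 7.94 FPKM with cisplatin and 8.97 ± 5.87 with both (log2 difference -1.36, 95% interval -2.30 to -0.41, limma adjusted p = 0.0545). Adam8 differed by -1.12 (interval -1.92 to -0.31, adjusted p = 0.061) and Adamts1 by -0.60 (-1.02 to -0.17, 0.0584). Without cisplatin+PCN library 2, which holds the highest level of that group for Timp1, Adam8, Adamts1 and Adamts4, these 4 and Adam11 all passed as lower (0.0142, 0.0129, 0.0125, 0.0196 and 0.0257). Adam8 also passed without cisplatin library 1 (0.0419) and Adamts1 without cisplatin library 2 (0.0491). Timp1 and Adam8 passed by limma-voom (0.0412 and 0.048), and Timp1 and Adamts1 at a mean FPKM of at least 5 (0.0453 and 0.0474). Library 1 of cisplatin+PCN, with the high tubule sum, was the lowest of its group for Timp1, Adam8, Adam11, Adamts1, Adamts4 and Mmp15. Of the members called lower, it was also the lowest for Adamts2, Mmp14, Loxl1 and Adam10. For Mmp3 it lay between the other libraries, and for Lox it was the highest, as it was for Adamts6. The part of the library difference in these results was not tested.

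Mmp7 and Timp3 were nearly the same in the 2 groups with cisplatin. The difference between cisplatin+PCN and cisplatin was -0.04 for Mmp7, with a 95% interval of -0.39 to 0.31 (limma adjusted p = 0.879), and 0.10 for Timp3, with an interval of -0.06 to 0.27 (0.365). Timp2 differed by -0.11 (0.328) and Adam15 by -0.05 (0.577). These intervals bound the size of a difference on the log2(FPKM + 1) scale and do not show that the groups are equal. On the recovered reads 8.13% of genes were called, 3.84% lower and 4.28% higher. Of the 39 members under the minimum 3 were lower, Mmp10 (log2 difference -1.84 ± 0.38, limma-voom adjusted p = 0.0111), Adam23 (-1.36, 0.0375) and Adamts7 (-0.89, 0.0484).

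Adamts16, a protease known from kidney and gonad, was the 1 member under the minimum that was higher with both drugs. It was at 0.383, 0.404 and 0.255 FPKM in control, 0.0988, 0.108 and 0.123 with cisplatin and 0.349, 0.287 and 0.364 with cisplatin+PCN. The cisplatin libraries were below all others, and the both-drug libraries lay within the control range. With the libraries of a group pooled, Adamts16 was at 0.461 FPKM with PCN, 0.346 in control and 0.333 with cisplatin+PCN. It fell with cisplatin (log2 difference -1.50 ± 0.31, limma-voom adjusted p = 0.00119) and was higher with both drugs than with cisplatin alone (1.55 ± 0.31, 0.00968).

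**Figure D4:**
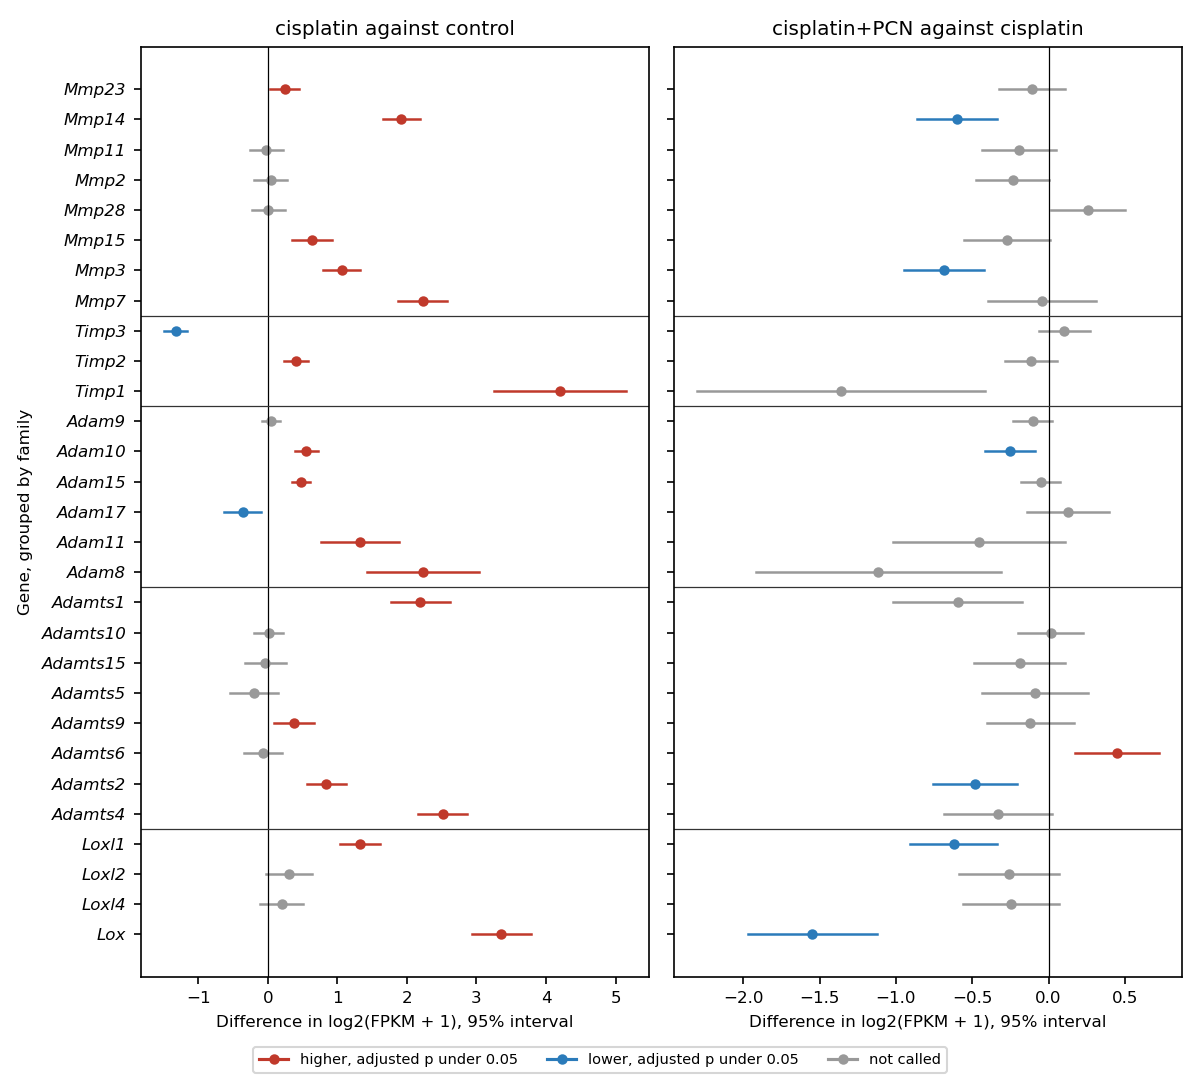
Log2(FPKM + 1) differences of the 29 tested members, with 95% intervals, for cisplatin against control (left) and cisplatin+PCN against cisplatin (right), coloured where the limma adjusted p is under 0.05. On the left 17 members are higher and 2 lower, on the right 1 is higher and 6 are lower, and both panels use the 3 cisplatin libraries.

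Against PCN alone, 16 members were higher and 6 lower with both drugs, where 23.5% of all genes were called higher and 23.4% lower (46.9% in all). Of the 10 members that did not meet the minimum in libraries without cisplatin 8 were higher, as were 47.7% of all such genes, and of the other 19 members 8 were higher and 6 lower (42.1% and 31.6%, against 21.8% and 25.1% of such genes). Of the 8 members under 1 FPKM in every library without cisplatin, 7 were higher (87.5%), against 68.3% of such genes. The largest differences were those of Timp1 (2.55), Mmp7 (2.23), Adamts4 (2.19), Lox (1.79), Adamts1 (1.67) and Mmp14 (1.31), and Timp3 was lower by -1.29. The other 5 lower members were Adamts5 (-0.54), Adamts15 (-0.44), Mmp11 (-0.33), Mmp2 (-0.32) and Adam9 (-0.17), none of them called for cisplatin against control. Of these 22 calls, 10 held under every alternative that gave a value, those of Timp1, Timp2, Timp3, Mmp7, Mmp14, Adam15, Adamts1, Adamts4, Lox and Loxl1. The other 12 were each lost without at least 1 library. The count of higher members was 10 without PCN library 1, PCN library 3 or cisplatin+PCN library 2, and that of lower members 2, 3 and 1 without PCN library 1, 2 and 3, and 3 without cisplatin+PCN library 1 or 3. On the recovered reads, 7 of the 39 members under the minimum were higher and 3 lower, where 18.8% of genes were higher and 12.7% lower (31.5% in all). Among them Mmp10 was higher, at 7.04 times the level that 3 reads over the PCN group would give. Mmp13 was lower (log2 difference -2.27, limma-voom adjusted p = 0.00166).

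Against control, 16 members were higher and 1 lower with both drugs, where 23.0% of all genes were higher and 23.6% lower (46.6% in all). Split as before, 8 of the 10 members were higher, against 48.4% of such genes, and of the 19 members 8 were higher and 1 lower (42.1% and 5.26%, against 21.2% and 25.3%). Of the 8 members under 1 FPKM in every library without cisplatin, 7 were higher (87.5%), against 69.2% of such genes. The higher members included Timp1 (log2 difference 2.84), Mmp7 (2.19), Adamts4 (2.18), Lox (1.81), Adamts1 (1.59) and Loxl1 (0.70), and Timp3 was lower by -1.22. The count of higher members fell to 10 without control library 3 and to 11 without cisplatin+PCN library 2. On the recovered reads, 6 of the 39 members under the minimum were higher and 6 lower, where 18.3% of genes were higher and 12.8% lower (31.1% in all).

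None of the 29 members passed for PCN against control by limma, and no gene of the 13540 was called (0.0%). At an unadjusted p under 0.05 there were 438 genes and 1 member, Loxl4, at 0.914, 0.947 and 0.902 FPKM in control and 0.425, 0.459 and 0.681 with PCN (log2 difference -0.34 ± 0.14, adjusted p = 1). No member was called by limma-voom or by a fit of the 6 libraries compared.

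The interaction, which asks whether the cisplatin difference was itself different with PCN, was called for no member and for 15 genes in all (0.111%, 0.0739% higher and 0.0369% lower) by limma. It was called for none of 68 members on the recovered reads, 13 of which had an unadjusted p under 0.05, where 0.238% of genes were called, 0.22% higher and 0.0173% lower. Unadjusted, 11 members had p under 0.05, and 6 of the 29 values were above 0. For Lox the interaction was -1.56 ± 0.27 (95% interval -2.16 to -0.96, adjusted p = 0.071), for Loxl1 -0.71 (0.117), for Mmp3 -0.67 ± 0.17 (0.11) and for Mmp14 -0.62 ± 0.17 (0.121). Lox passed without cisplatin library 2 (0.00697) or cisplatin+PCN library 2 (0.0275), Mmp14 without cisplatin library 2 (0.0195) and Mmp3 without cisplatin+PCN library 2 (0.0423). Without these libraries the count over all genes rose too, from 15 to 1066 without cisplatin library 2 and to 493 without cisplatin+PCN library 2, with 2 members in each, and it was 9 to 17 without any other library.

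Summed over a family, the inhibitors were lower and the proteases and cross-linkers higher with cisplatin, and the inhibitor sum without Timp3 went the other way. The Timp sum was 178 ± 8.65 FPKM in control, 186 ± 7.19 with PCN, 108 ± 9.03 with cisplatin and 98.3 ± 7.84 with cisplatin+PCN. The Mmp sum was 9.44 ± 0.623, 9.59 ± 0.118, 25.0 ± 1.61 and 18.5 ± 3.43 FPKM in the same order, and the Adamts sum 23.4 ± 1.54, 24.0 ± 1.80, 72.1 ± 7.12 and 52.7 ± 13.3. The lysyl oxidase sum went from 8.52 ± 1.76 in control to 35.1 ± 5.44 with cisplatin and was 16.7 ± 1.74 with both drugs. The Adam sum differed least in proportion, from 67.9 ± 0.662 to 87.0 ± 6.35 and 75.8 ± 6.10.

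The ratio of summed Timp to summed Mmp, Adam and Adamts mRNA was 1.70 to 1.83 in the control libraries, 0.558 to 0.617 with cisplatin and 0.627 to 0.753 with cisplatin+PCN. The range with cisplatin lay far below that of control, and the both-drug range just above that of cisplatin. Single genes carry much of these sums. Timp3 made up 90.4% of the Timp sum in control and 59.0% with cisplatin. The Timp sum without Timp3 was 17.1 ± 1.56 FPKM in control, 44.6 ± 6.83 with cisplatin and 29.7 ± 6.74 with both drugs. The Adamts sum without Adamts1 was 12.7 in control and 19.6 with cisplatin. mRNA sums of this kind say nothing of protein or of enzyme activity, and no test was made on them.

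**Figure D5:**
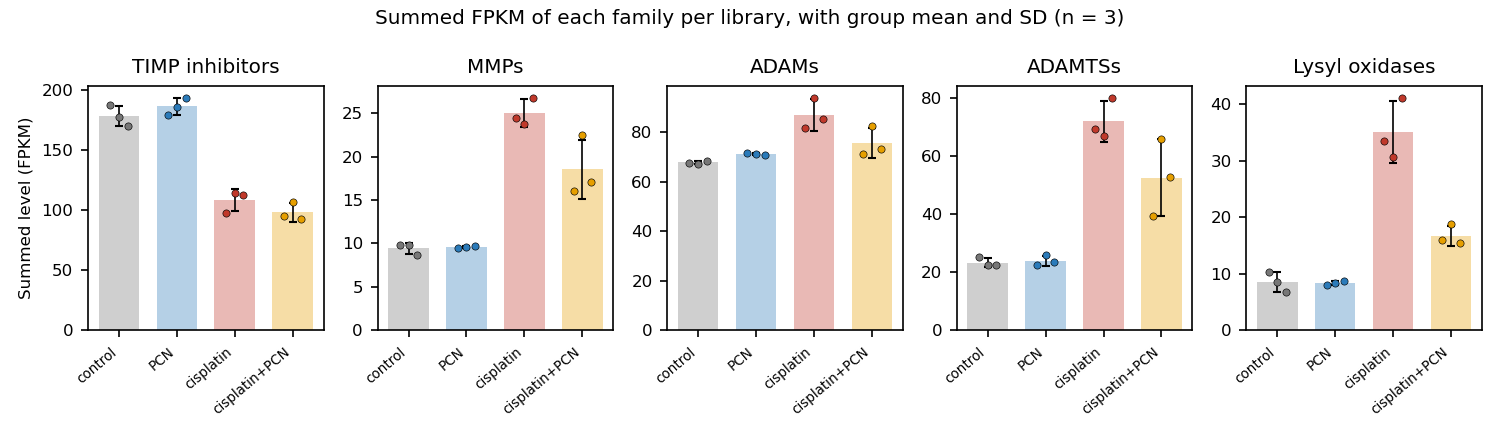
Summed FPKM of each family in each library (points), with group means (bars) and SD (error bars, n = 3). The Timp sum is lower, and the Mmp, Adam, Adamts and lysyl oxidase sums are higher, in all 3 cisplatin libraries than in all 3 control libraries.

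Partner genes of these enzymes were counted from lists chosen with earlier results of these data known. Over all tested genes 32.0% rose and 31.9% fell with cisplatin (63.9% called), and 7.97% were higher and 7.61% lower with both drugs than with cisplatin (15.6% called). Shares of a list near these are not particular to it, and no list was tested. In the plasminogen system, whose product plasmin activates pro-MMPs, 5 of 7 tested genes rose and 1 fell with cisplatin. The urokinase receptor Plaur went from 2.77 to 22.5 FPKM and the tissue activator Plat from 11.3 to 43.1, and both were lower with both drugs than with cisplatin (-0.93 and -0.95, limma adjusted p = 0.0163 and 0.0162). Serpinf2, the plasmin inhibitor, fell from 118 to 14.4 FPKM.

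Of 7 tested further inhibitors and cofactors 3 rose and 4 fell with cisplatin. Wfdc2, a secreted protease inhibitor linked to renal fibrosis, went from 61.6 to 279 FPKM, and Pzp, a broad-range protease trap, from 9.58 to 0.128. Reck, a membrane inhibitor of MMPs, fell by 0.32 on the log2 scale (limma adjusted p = 0.0142). Of 12 tested regulators of ADAM10 and ADAM17 5 rose and 2 fell. The iRhom genes, whose products carry ADAM17 to the cell surface, rose, with Rhbdf2 going from 1.83 to 10.2 FPKM (log2 difference 1.97) and Rhbdf1 up by 0.85. Both were lower with both drugs than with cisplatin (-0.51 and -0.34, limma adjusted p = 0.0129 and 0.0171), while Adam17 itself was lower with cisplatin.

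Among 17 tested substrates that such sheddases release 12 rose and 3 fell with cisplatin, and 8 were lower and 2 higher with both drugs than with cisplatin. Havcr1, the tubular injury marker KIM-1, rose by 7.67 on the log2 scale and Areg, amphiregulin, by 2.60, whereas Egf fell by 4.40 and Kl, klotho, fell by 3.63. Of 20 tested matrix substrates 13 rose and none fell, led by Spp1, osteopontin (4.91), and including Col4a1 (1.74), Col4a2 (1.55) and Dcn (1.06), and 4 were lower with both drugs. Fn1, fibronectin, was not called with cisplatin (0.13) and was lower with both drugs than with cisplatin (-0.68, limma adjusted p = 0.0184).

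Of 12 tested collagen-processing genes 4 rose and 2 fell with cisplatin, no larger a share than the 63.9% called over all genes. They included the cross-linking transglutaminase Tgm2 (0.96) and the lysyl hydroxylase Plod2 (0.69), which rose, and the prolyl hydroxylase subunit P4ha1, which fell by 1.06. Of 5 tested ADAMTS-like genes, which encode relatives without a protease domain, 3 rose, Adamtsl4 (1.41), Adamtsl2 (1.09) and Papln (0.87). Of 6 other tested metalloproteases 2 rose and 3 fell. Bmp1, the procollagen C-proteinase that also activates lysyl oxidase, went from 1.95 to 8.14 FPKM, whereas the brush-border meprins fell, Mep1b from 81.5 ± 6.84 to 3.09 ± 0.716 FPKM and Mep1a from 492 to 233. Mep1b was higher with both drugs than with cisplatin (1.51, limma adjusted p = 0.00877) and Bmp1 lower (-0.65, 0.0359), beside the tubule marker sums given above, whose part in these results was not tested.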

How the data were processed

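The authors deposited 1 table of FPKM per gene for all 12 libraries. HISAT2 2.0.5 and featureCounts 1.5.0-p3 are named in the submitters' processing notes, without settings or strand. Build mm8 is named there, yet 49909 of the 52403 genes found in GENCODE M21 have the same GRCm38 coordinates, so positions are read as GRCm38. FPKM times gene length, divided by a step particular to each library, gave whole reads for 100% of nonzero values within 0.001. The library totals that these steps imply were 0.952 to 1.11 times the reads assigned to genes, for a reason not given in the sources used here. Overlaps between genes were read from GENCODE M21.

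Values were tested on the log2(FPKM + 1) scale by limma-trend (limma 3.58.1, R 4.3.3), for genes with an FPKM of at least 1 in at least 3 libraries, in 1 fit of 4 groups, with two-sided Benjamini-Hochberg adjusted p under 0.05 within each of 6 comparisons. A pseudocount of 1 understates the change of low genes. A fold is a ratio of mean FPKM. The procedure was tested on simulated data. Alternatives were a pseudocount of 0.1, a minimum mean FPKM of 5, no filter, 2 other scalings, only the groups compared, a replicate block, limma-voom on recovered reads, and leaving out each library. limma-voom on genes with at least 10 reads was added after seeing the data.

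The rule for named genes took a panel of members, every other called member, members under the minimum that reach an FPKM of 0.3 in some library, and up to 4 called genes per partner list. For some partner lists fewer than 4 genes are named although more were called, and those named need not be the ones with the largest change. Members and lists were chosen with earlier results of these data known. Promoters are RefSeq windows for GRCm38.p6, matched by symbol to 49 members.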

Additional observations from a re-analysis of the deposited data

How the results depend on the processing

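No called result changed direction under the alternatives run. With cisplatin, 26 members were higher and 11 lower by limma-voom on the 68 members with at least 10 reads, 7 and 1 of 9 at a mean FPKM of at least 5, and the number lower was 10 of 76 without a filter, 1 with scaling that leaves out the most abundant and mitochondrial genes and 1 by limma-voom. Leaving out 1 library gave 15 to 18 higher and 1 to 2 lower. Between cisplatin+PCN and cisplatin, 0 were higher and 0 lower with only the groups compared, 0 were higher at a mean of at least 5 and 2 by limma-voom on at least 10 reads, and leaving out 1 library gave 0 to 1 higher and 4 to 11 lower. Against PCN, 7 were higher and 2 lower at a mean of at least 5 and 3 lower by limma-voom, with 10 to 17 higher and 1 to 6 lower without 1 library. Against control, cisplatin+PCN had 7 higher at a mean of at least 5, 5 lower without a filter and 7 lower on at least 10 reads, with 10 to 16 higher and 1 to 2 lower without 1 library. The interaction gave 1 lower at a mean of at least 5 and 0 to 2 without 1 library. Fewer or more members were tested at those filters, and for the other differences the cause was not tested. With the replicate block, 17 members were higher and 2 lower with cisplatin, and 1 higher and 7 lower between cisplatin+PCN and cisplatin, Adam8 being the added call (adjusted p = 0.049). Against PCN the block lost Adam9 (0.0543) and Adamts2 (0.0552) and added Mmp23 (0.0429). Same-numbered libraries share only a number: their deviations correlated at -0.28 to 0.37 over 18 pairs, 4 of them over 0.1, and 5 of 12 libraries correlated best with their own number. Members under an FPKM of 1 rest on fewer than 27.2 reads per kilobase.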
